A study of Homo sapiens with 6 samples.

Results

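Expression of 10 genes reported to be higher in ERG-positive prostate cancer was followed in VCaP cells after knockdown of PRMT5. They were PLAU, PLAT, ARHGDIB, CACNA1D, TDRD1, NCALD, PLA1A, CRISP3, ZNF385B and FZD4. The members were all probe sets whose platform annotation gave exactly 1 of these 10 symbols, which found 20 of the 54675 probe sets on the array and 10 of 19775 genes with a probe set of their own. No measured value entered that choice of probe sets, but the 10 genes were chosen with earlier results of these data known. VCaP cells are a human line from a prostate cancer metastasis, in which a TMPRSS2-ERG fusion drives ERG. The 6 samples formed 3 groups of 2 arrays, all with an shRNA and all given doxycycline at 100 ng/ml for 3 days. The groups were PRMT5 shRNA 2, PRMT5 shRNA 1 and a non-targeting control (NTC shRNA). Control cells therefore had doxycycline and a hairpin too, and uninduced cells were not analysed here. The labels do not say whether replicates were separate cultures, so the spread behind each p-value is that between these arrays and may be technical.

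ERG is an ETS-family transcription factor that prostate cells hardly make unless a fusion places it under the androgen-driven TMPRSS2 promoter. ETS factors bind DNA at a GGAA core, and genes higher in fusion-positive tumours include direct targets as well as genes that only accompany ERG. The 10 genes have different jobs, from proteolysis outside the cell to calcium handling, lipid cleavage, WNT reception and germline RNA silencing. PRMT5 is the main enzyme that places symmetric dimethyl marks on arginine, on histones and on many other proteins.

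As a check on the labels, the PRMT5 intensity of its brightest probe set was 36.2% of the NTC mean with PRMT5 shRNA 2 and 15.9% with PRMT5 shRNA 1. Arrays of a group correlated at 0.996 to 0.997 over the 12413 genes tested, and arrays of different groups at 0.976 to 0.991. The 6 measured luminal markers of the prostate, KLK3, HOXB13, TMPRSS2, KRT8, KRT18 and SLC45A3, were above the median of every array, and summed to 6711.2 to 7335.5 with PRMT5 shRNA 2, 6938.3 to 7142.5 with PRMT5 shRNA 1 and 4999.6 to 5289.2 with NTC. They did not move one way: 4 were called higher and 2, HOXB13 (-0.28 ± 0.07, SE, log2 scale) and TMPRSS2 (-0.21 ± 0.07), lower with both hairpins averaged. KLK3 alone averaged 2570 with PRMT5 shRNA 2 and 2626 with PRMT5 shRNA 1, against 1178 with NTC. ARHGDIB, PLAU and PLAT are also made by blood, vessel and connective tissue cells, so markers of those cells were read as well. Of 10 leukocyte markers measured, 9 were below the array median on every array, PTPRC at 2.3 to 4.2, and the exception was LCP1 at 1326.1 to 1858.4. Leukocyte markers summed to 1679 to 1899 with PRMT5 shRNA 2, 1703.8 to 1743.3 with PRMT5 shRNA 1 and 1366.6 to 1421.9 with NTC. None of 9 endothelial markers passed the filter, CDH5 being at 0.5 to 6.1, and their summed intensity was 44.4 to 54.0 with PRMT5 shRNA 2, 50.9 to 53.5 with PRMT5 shRNA 1 and 35.0 to 43.8 with NTC. Fibroblast markers summed to 739 to 833.2 with PRMT5 shRNA 2, 1006.6 to 1086.3 with PRMT5 shRNA 1 and 497.2 to 529.9 with NTC. Only LUM, at 428.3 to 1020, and COL1A1, at 24.6 to 54, of these 9 passed the filter, and COL1A2 was at 2.3 to 5.3. Most of the fibroblast sum was therefore LUM. With both hairpins averaged LUM rose by 0.87 ± 0.07 (SE, log2 scale) and COL1A1 did not pass (0.10 ± 0.12). None of these markers was listed at 0. For the ACTB control probe sets, 3′ over 5′ intensity was 5 to 5.72 with PRMT5 shRNA 2 and 3.49 to 3.88 with PRMT5 shRNA 1. It was 4.58 to 4.88 with NTC. For GAPDH the ratio was 1.22 to 1.23 with PRMT5 shRNA 2, 1.21 to 1.23 with PRMT5 shRNA 1 and 1.26 to 1.33 with NTC. The part of RNA quality or of these markers in the results was not tested.

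The promoters of 3 members are shown because these genes moved in opposite directions and differ in how many ETS cores they hold. Each line gives the 250 bases before the outermost annotated start, 5′ to 3′ on the gene's strand, from RefSeq on GRCh38.p14, with every GGAA or TTCC (the same core on the other strand) in capitals. CACNA1D, which fell, is at chr3:53494361-53494610 on the plus strand. PLA1A, which also fell, is at chr3:119597635-119597884 on the plus strand. FZD4, which rose, is at chr11:86955396-86955645 on the minus strand.
CACNA1D: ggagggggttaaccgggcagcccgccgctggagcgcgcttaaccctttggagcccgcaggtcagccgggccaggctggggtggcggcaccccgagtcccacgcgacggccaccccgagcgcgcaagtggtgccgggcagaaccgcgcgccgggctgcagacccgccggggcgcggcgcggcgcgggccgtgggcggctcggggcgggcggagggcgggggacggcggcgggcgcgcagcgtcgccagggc
PLA1A: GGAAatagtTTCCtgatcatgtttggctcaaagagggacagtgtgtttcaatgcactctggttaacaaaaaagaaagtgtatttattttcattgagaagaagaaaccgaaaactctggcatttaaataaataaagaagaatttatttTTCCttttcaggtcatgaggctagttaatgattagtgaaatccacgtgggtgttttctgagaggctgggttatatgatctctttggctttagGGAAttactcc
FZD4: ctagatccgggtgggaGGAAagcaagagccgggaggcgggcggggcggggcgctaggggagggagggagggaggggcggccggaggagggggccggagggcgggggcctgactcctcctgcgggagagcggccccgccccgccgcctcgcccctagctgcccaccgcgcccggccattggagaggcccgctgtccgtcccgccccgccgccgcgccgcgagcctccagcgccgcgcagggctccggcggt
CACNA1D had 0 matches, PLA1A 4 and FZD4 1. Of all 35116 promoter windows of this length in the table, 92.7% held at least 1 such core and the median was 3. The longer GGAAG, which contains GGAA and was also searched on both strands, was in 65.1% of all windows and in none of the 3 shown, although a second listed start of PLA1A had 5 GGAA and 2 GGAAG matches before it. In all, windows were read for 8 members, 17 windows together. Those of PLAT and NCALD were not read, so the counts do not cover these genes. TDRD1, which did not pass the test, had 4 and 5 GGAA and 2 and 3 GGAAG matches before its 2 listed starts. ARHGDIB, which fell, had 1 to 4 GGAA matches before its 3 listed starts, and CRISP3 had 2 before its only one. ZNF385B, which fell, had 0 to 5 GGAA and 0 to 3 GGAAG matches before its 5 listed starts, and PLAU had 3 and 4 GGAA and 0 and 3 GGAAG matches before its 2. A match is a stretch of letters and not a measured binding site. The sequences shown were picked with direction and matches known, and a link between them was not tested.

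After PRMT5 knockdown the 10 genes did not move together. PLAT, CACNA1D and ARHGDIB fell by more than PLA1A, ZNF385B and CRISP3, NCALD and FZD4 rose, TDRD1 did not pass the test, and PLAU lay below the filter in all 6 arrays. The question of this comparison was which of them changed when both hairpins were averaged and set against NTC. In limma's fit across 12413 genes, 8 of the 9 tested members were called, where 32.4% of all genes were. Of these members, 2 of the 9 tested members were called higher, where 15.4% of all genes were, and 6 were called lower, where 17.0% of all genes were. Their median log2 difference was -0.28, and that of all genes tested was -0.01. A gene was tested if its probe set reached the array median in at least 2 of 6 arrays. PLAT reached it in both NTC arrays and in 1 knockdown array, so it was tested only because of the group where it is high. The counts are given as a description only.

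**Figure D1:**
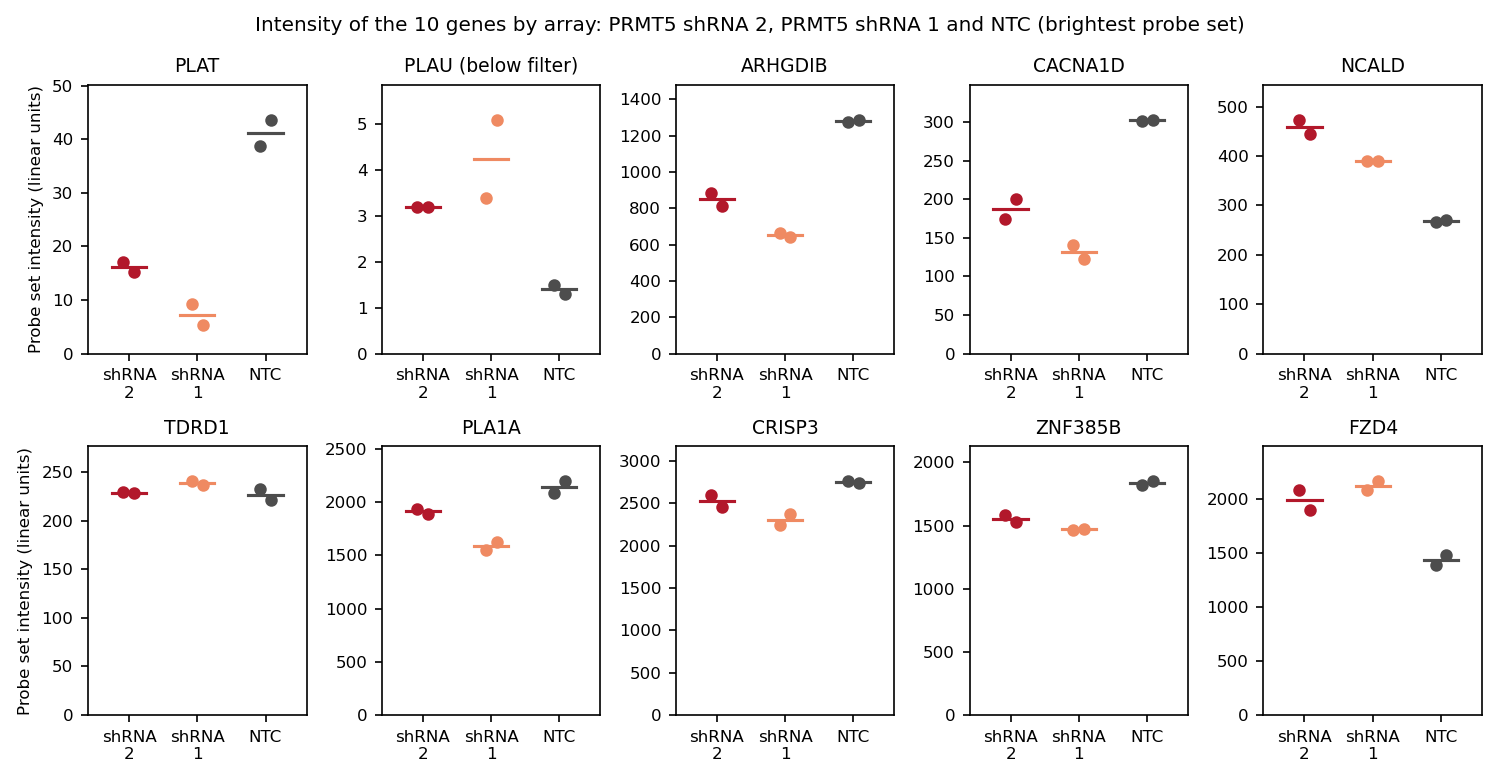
Intensity of each of the 10 genes on its brightest probe set (vertical axes, linear units from 0, a separate scale per gene) in PRMT5 shRNA 2, PRMT5 shRNA 1 and NTC arrays. Points are single arrays and lines are means of 2 arrays. In 8 of the 9 genes above the filter all 4 knockdown points lie on one side of both NTC points, and TDRD1 overlaps.

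In 8 of 9 tested members the 4 knockdown arrays lay on one side of both NTC arrays, which was true of 39.2% of all genes tested. The 6 that lay wholly below compare with 20.5% of all genes, and the 2 wholly above with 18.7%.

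The plasminogen activators come first. PLAT encodes tissue-type plasminogen activator, a secreted protease that cuts plasminogen into active plasmin. Its single probe set, 201860_s_at, read 17.1 and 15.2 with PRMT5 shRNA 2, 9.2 and 5.3 with PRMT5 shRNA 1, and 38.8 and 43.7 with NTC. All 4 knockdown arrays were lower than both controls, and both shRNA 1 arrays were lower than both shRNA 2 arrays. On the log2(intensity + 16) scale PLAT fell by 1.07 ± 0.11 (SE, limma, adjusted p = 2.64e-05). It met the filter only through the NTC arrays, where it is high, so this p-value is a description. Array medians were 14.8 to 16.4, so the knockdown arrays were near or under the middle of the scale. The size therefore depends on the added constant, and was -1.85 with a pseudocount of 1 and -0.48 with 64. PLAU encodes urokinase, the other activator, which is tied to the cell surface by its receptor. Its probe set 205479_s_at read 3.2 and 3.2 with PRMT5 shRNA 2, 3.4 and 5.1 with PRMT5 shRNA 1, and 1.5 and 1.3 with NTC. The other PLAU probe set, 211668_s_at, stayed between 0.3 and 0.9 in all arrays. Both are so far below the array medians that the test was not applied. With no filter, limma gave PLAU a log2 difference of 0.18 ± 0.07 (SE) with adjusted p = 0.111.

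Of 14 other genes of the plasminogen system, 8 were above the filter, and 5 of these rose, 0 fell and 3 did not pass, where 15.4% of all genes tested rose and 17.0% fell. The same shares stand beside the counts of each related list that follows, as descriptions of small lists. SERPINE2, a protease inhibitor that blocks both activators, read 136.6 and 171.1 with PRMT5 shRNA 2, 209.4 and 205 with PRMT5 shRNA 1, and 68.7 and 63.2 with NTC, and rose by 1.25 ± 0.09 (SE) on the log2 scale. SERPINI1, or neuroserpin, an inhibitor of tissue-type plasminogen activator, rose by 0.89 ± 0.06, to means of 523 with PRMT5 shRNA 2 and 554 with PRMT5 shRNA 1, against 283 with NTC. ANXA2 (0.86 ± 0.07) and PLGRKT (0.34 ± 0.07), which encode cell-surface binding partners of plasminogen, rose as well. The 5 genes were called with each hairpin. PLAUR, the urokinase receptor, did not pass (-0.06 ± 0.11).

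ARHGDIB encodes a cytosolic protein that is best known from blood cells. Its brightest probe set, 201288_at, read 885.5 and 811.3 with PRMT5 shRNA 2, 661 and 640.5 with PRMT5 shRNA 1, and 1272.7 and 1287.8 with NTC. The 3 groups did not overlap, and intensity was 66.3% of the NTC mean with PRMT5 shRNA 2 and 50.8% with PRMT5 shRNA 1. ARHGDIB fell by 0.77 ± 0.05 (SE, limma, adjusted p = 1.83e-06). The other 2 probe sets fell in the fit over probe sets, 1555812_a_at by 0.89 ± 0.09 and 1555811_at by 1.09 ± 0.16. Of the listed leukocyte markers, LCP1, an actin-bundling protein, rose by 0.33 ± 0.06, and PTPRC, the defining leukocyte marker, was at 2.3 to 4.2. A link of these markers to the fall of ARHGDIB was not tested.

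CACNA1D encodes the pore of Cav1.3, an L-type voltage-gated calcium channel. Its brightest probe set, 1555993_at, read 173.9 and 199.6 with PRMT5 shRNA 2, 140.6 and 122.4 with PRMT5 shRNA 1, and 300.8 and 303.1 with NTC. No knockdown array reached the controls, and the 2 hairpins did not overlap. CACNA1D fell by 0.88 ± 0.08 (SE, limma, adjusted p = 1.61e-05), to 61.9% of the NTC mean with PRMT5 shRNA 2 and 43.6% with PRMT5 shRNA 1. In the fit over probe sets 210108_at fell by 1.08 ± 0.09 and 243334_at by 0.74 ± 0.12. The dimmest, 207998_s_at, reached the array median only in the NTC arrays, at 19.8 and 16.8, and read 5.6 to 9.8 in the knockdown arrays, so it passed the filter through the group where it is high and its size of change is not read here.

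Of 17 other voltage-gated calcium channel subunit genes, 7 were above the filter, with 1 higher, 2 lower and 4 not passing. CACNA2D1, an alpha2delta subunit that brings channels to the membrane, read 171.1 and 197.5 with PRMT5 shRNA 2, 150.2 and 148.4 with PRMT5 shRNA 1, and 341.4 and 326.6 with NTC. It fell by 0.94 ± 0.08 (SE). The pore gene CACNA1C, of the other widely expressed L-type channel, was 1 of the 2 counted as lower, but it passed the filter only through the NTC arrays, at 23.2 and 25.2. Its knockdown arrays were at 4.9 to 13.3, below the array medians, so no size is given. CACNB3, an intracellular beta subunit, rose by 0.32 ± 0.09 and was called with PRMT5 shRNA 2 but not with PRMT5 shRNA 1.

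NCALD encodes neurocalcin delta, a calcium sensor of the neuronal family. Its probe set 211685_s_at read 473.9 and 444.3 with PRMT5 shRNA 2, 389 and 391 with PRMT5 shRNA 1, and 266 and 271.2 with NTC. Every knockdown array was above both controls, and PRMT5 shRNA 2 was above PRMT5 shRNA 1. NCALD rose by 0.63 ± 0.06 (SE, limma, adjusted p = 2.32e-05). The second probe set, 1562790_at, read 6.5 to 9.6 in the 6 arrays and lay below the filter. Of 10 other neuronal calcium sensors, 6 were above the filter, 0 rose, 1 fell (KCNIP3, a partner of potassium channels, by 0.43 ± 0.11, called with PRMT5 shRNA 1 but not with PRMT5 shRNA 2) and 5 did not pass.

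TDRD1 is a Tudor-domain protein of the germline. In mouse, Tudor proteins of this kind bind symmetrically dimethylated arginines on PIWI proteins, the mark that PRMT5 makes. Its probe set 221018_s_at read 229.2 and 228.1 with PRMT5 shRNA 2, 240.6 and 236.1 with PRMT5 shRNA 1, and 232.5 and 220.9 with NTC. The NTC arrays spanned both PRMT5 shRNA 2 arrays, and both PRMT5 shRNA 1 arrays were above them. TDRD1 did not pass (0.04 ± 0.07, SE, limma, adjusted p = 0.685), and the 95% interval of its log2 difference was -0.11 to 0.19. That interval excludes a fall of the size seen for CACNA1D, ARHGDIB or PLAT, but not a change of up to 0.19. Of 21 other Tudor and piRNA pathway genes, 10 were above the filter, with 2 higher, 1 lower and 7 not passing. TDRKH, a mitochondrial Tudor protein of piRNA processing, fell by 0.62 ± 0.07, to means of 245 with PRMT5 shRNA 2 and 193 with PRMT5 shRNA 1, against 342 with NTC. HENMT1, the methyltransferase of piRNA ends, rose by 0.50 ± 0.06. ASZ1 was called with PRMT5 shRNA 1 (0.41 ± 0.06) but not with PRMT5 shRNA 2 (0.02 ± 0.06, adjusted p = 0.856).

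PLA1A encodes a secreted phospholipase that acts on phosphatidylserine. Its probe set 219584_at read 1937.6 and 1886.9 with PRMT5 shRNA 2, 1550.2 and 1626.1 with PRMT5 shRNA 1, and 2083.3 and 2196.2 with NTC. The groups did not overlap, with PRMT5 shRNA 2 between PRMT5 shRNA 1 and NTC. PLA1A fell by 0.29 ± 0.05 (SE, limma, adjusted p = 0.000881). With both hairpins treated as 1 group of 4 arrays, whose spread holds the difference between them, the call was lost (adjusted p = 0.0691). Of 9 relatives in the pancreatic lipase family, 3 were above the filter. LIPH (0.46 ± 0.06) and LPL, lipoprotein lipase (0.39 ± 0.05), rose, and the endothelial lipase gene LIPG fell by 0.60 ± 0.09.

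CRISP3 encodes a cysteine-rich secretory protein of the CAP superfamily, found in seminal fluid. Its probe set 207802_at read 2600 and 2460 with PRMT5 shRNA 2, 2242.9 and 2369.7 with PRMT5 shRNA 1, and 2763.1 and 2734.8 with NTC. All knockdown arrays were below the controls, but the closest of them was at 2600 against 2734.8. CRISP3 fell by 0.19 ± 0.05 (SE, limma, adjusted p = 0.0108). It lost its call without NTC replicate 1 (adjusted p = 0.107), without NTC replicate 2 (0.0807), with both hairpins as 1 group (0.084) and with no intensity trend (0.0565). Larger changes were seen in other CAP genes, of which 4 of 11 were above the filter, 3 higher and 1 lower. CRISP2, a testis relative of CRISP3, read 32.6 and 51.4 with PRMT5 shRNA 2, 27.4 and 20.9 with PRMT5 shRNA 1, and 112 and 113.2 with NTC, and fell by 1.43 ± 0.13. CRISPLD1 rose by 1.68 ± 0.10, to 124.5 and 111.3 with PRMT5 shRNA 2 and 159.8 and 160.3 with PRMT5 shRNA 1, against 27.8 and 36.6 with NTC. PI15 (0.45 ± 0.10) and GLIPR1 (0.38 ± 0.08) rose too, GLIPR1 being called with PRMT5 shRNA 1 but not with PRMT5 shRNA 2.

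ZNF385B encodes a zinc finger protein. Its brightest probe set, 229019_at, read 1586.5 and 1525.3 with PRMT5 shRNA 2, 1466.4 and 1473 with PRMT5 shRNA 1, and 1820.8 and 1852.5 with NTC. Every knockdown array was lower than both controls, with the hairpins close to each other. ZNF385B fell by 0.28 ± 0.05 (SE, limma, adjusted p = 0.000951), and in the fit over probe sets 1555800_at fell by 0.39 ± 0.08 and 1555801_s_at by 0.46 ± 0.09. Of its 3 relatives, 2 were above the filter: ZNF385C rose by 0.27 ± 0.09, called with PRMT5 shRNA 1 but not with PRMT5 shRNA 2, and ZNF385A did not pass (0.13 ± 0.11).

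FZD4 encodes a Frizzled receptor for WNT ligands and for the protein Norrin. Its brightest probe set, 218665_at, read 2087.5 and 1894.5 with PRMT5 shRNA 2, 2080 and 2166.6 with PRMT5 shRNA 1, and 1392.1 and 1483.7 with NTC. The hairpins overlapped each other and both were above NTC. FZD4 rose by 0.51 ± 0.05 (SE, limma, adjusted p = 4.15e-05). The second probe set, 224337_s_at, rose by more, 1.06 ± 0.11 in the fit over probe sets, with 86.5 and 109.5 with PRMT5 shRNA 2, 128.9 and 128 with PRMT5 shRNA 1, and 39.7 and 51.8 with NTC. The mean over both probe sets gave 0.78, so the size of the rise depends on the probe set and its direction does not.

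Of 21 other Frizzled and WNT receptor genes, 17 were above the filter, with 4 higher, 5 lower and 8 not passing. FZD3 rose by 0.56 ± 0.07 (SE) and FZD7 by 0.53 ± 0.08. ZNRF3, a ubiquitin ligase that removes Frizzled receptors from the membrane, read 296.1 and 346.9 with PRMT5 shRNA 2, 285.7 and 275.2 with PRMT5 shRNA 1, and 468.2 and 431.4 with NTC, and fell by 0.56 ± 0.08. The co-receptor gene LRP6 fell by 0.41 ± 0.08 and was called with PRMT5 shRNA 1 but not with PRMT5 shRNA 2.

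**Figure D2:**
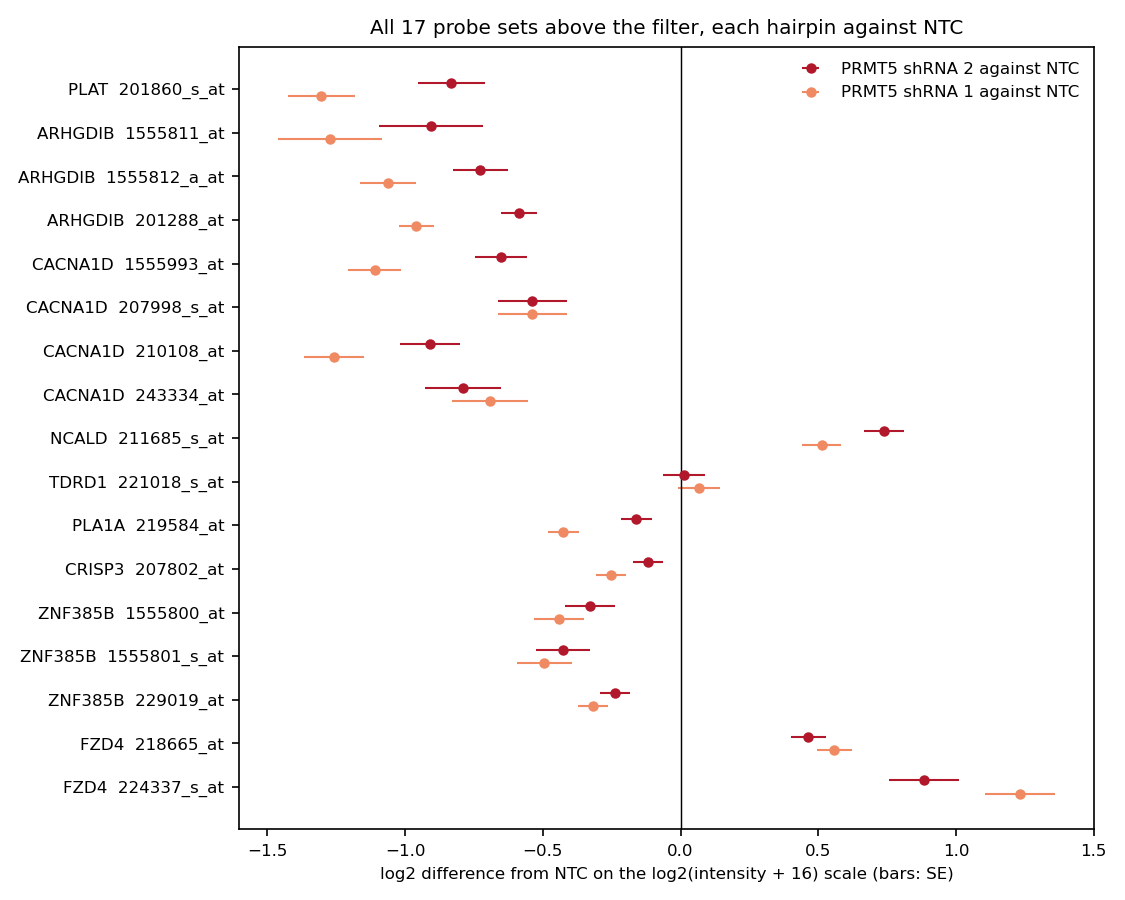
Log2 difference from NTC (horizontal axis, log2(intensity + 16) scale, bars are SE) of the 17 probe sets above the filter, for PRMT5 shRNA 2 and PRMT5 shRNA 1. Probe sets of the same gene share a sign, from -1.30 for PLAT to 1.23 for FZD4 224337_s_at with PRMT5 shRNA 1.

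Probe by probe, 17 of the 20 probe sets were above the filter and 16 were called with both hairpins averaged, where 28.2% of all 28644 probe sets tested were. Of these, 3 were higher, where 13.5% of all were, and 13 were lower, where 14.7% were. The 13 include 207998_s_at of CACNA1D and the PLAT probe set, which passed the filter only through the NTC arrays, so the count is a description. The probe sets of ARHGDIB, CACNA1D, ZNF385B and FZD4 moved in 1 direction within each gene. With PRMT5 shRNA 2, 3 member probe sets were higher (9.38% of all) and 11 lower (8.63%), and with PRMT5 shRNA 1, 3 were higher (17.5%) and 13 lower (19.0%). Between the hairpins, 7 were higher with PRMT5 shRNA 2 (13.1%) and 0 lower (12.7%). Probe sets of a gene read the same RNA and are not replicates of the knockdown.

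Each hairpin was also set against the same 2 NTC arrays, so these comparisons share their controls. With PRMT5 shRNA 2, 2 of 9 members were called higher, where 13.1% of all genes were, and 4 were called lower, where 8.39% were. With PRMT5 shRNA 1, 2 were called higher, where 16.2% were, and 6 lower, where 23.1% were. NCALD and FZD4 were higher, and PLAT, CACNA1D, ARHGDIB and ZNF385B lower, with each hairpin, where 8.35% of all genes were higher with both and 6.10% lower with both. PLAT gave -0.83 ± 0.12 (SE) with PRMT5 shRNA 2 and -1.30 ± 0.12 with PRMT5 shRNA 1, with the limit of its filter given above. CACNA1D gave -0.65 ± 0.10 and -1.11 ± 0.10, and ARHGDIB -0.59 ± 0.06 and -0.96 ± 0.06, in the same order. ZNF385B gave -0.24 ± 0.05 and -0.32 ± 0.05, and its PRMT5 shRNA 2 call was lost without NTC replicate 1 (adjusted p = 0.0541) or NTC replicate 2 (0.0772).

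PLA1A and CRISP3 were called with PRMT5 shRNA 1 but not with PRMT5 shRNA 2. PLA1A gave -0.16 ± 0.05 with PRMT5 shRNA 2 (limma, adjusted p = 0.060) and -0.43 ± 0.05 with PRMT5 shRNA 1 (adjusted p = 0.000172). CRISP3 gave -0.12 ± 0.05 (adjusted p = 0.138) and -0.25 ± 0.05 (adjusted p = 0.00379). After quantile normalization both were called with PRMT5 shRNA 2, PLA1A at -0.18 (adjusted p = 0.0183) and CRISP3 at -0.15 (adjusted p = 0.0179). TDRD1 gave 0.01 ± 0.08 and 0.07 ± 0.08 and did not pass with either.

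The hairpins were then compared directly, PRMT5 shRNA 2 minus PRMT5 shRNA 1. Of 9 members, 5 were called higher with PRMT5 shRNA 2, where 18.3% of all genes were, and 0 lower, where 7.38% were, and 25.7% of all genes differed in either direction. Both PRMT5 shRNA 2 arrays were above both PRMT5 shRNA 1 arrays in 7 of 9 members, where 41.3% of all genes had that order. Among them PLAT, CACNA1D, ARHGDIB and PLA1A, which lay below NTC with both hairpins, fell less far with PRMT5 shRNA 2. PLAT differed by 0.47 ± 0.12 (SE, limma, adjusted p = 0.019), with 17.1 and 15.2 against 9.2 and 5.3. All 4 of these readings lie near or under the array medians of 14.8 to 16.4, so this call rests on a dim probe set and its size on the pseudocount, with 1.10 at a pseudocount of 1 and 0.17 at 64. CACNA1D differed by 0.46 ± 0.10 (adjusted p = 0.0071) on its brightest probe set, and by 0.18 (adjusted p = 0.134) as the mean over its 4 probe sets. That mean includes 207998_s_at, which read under the array medians with both hairpins. In the fit over probe sets 210108_at gave 0.35 ± 0.11 (limma, adjusted p = 0.0371) and 243334_at gave -0.10 ± 0.14. ARHGDIB differed by 0.37 ± 0.06 (adjusted p = 0.0029) and PLA1A by 0.27 ± 0.05 (adjusted p = 0.00678).

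NCALD, which rose with both, was higher still with PRMT5 shRNA 2, by 0.23 ± 0.07 (limma, adjusted p = 0.039). FZD4 differed by -0.09 ± 0.06, with a 95% interval of -0.23 to 0.04, ZNF385B by 0.08 ± 0.05 (-0.03 to 0.20), TDRD1 by -0.06 ± 0.08 (-0.23 to 0.11) and CRISP3 by 0.13 ± 0.05 (0.02 to 0.25), and none of these passed. Of the 5 calls, that of ARHGDIB was kept under every alternative tried. That of PLAT was lost without PRMT5 shRNA 1 replicate 2 or either PRMT5 shRNA 2 array, CACNA1D's without PRMT5 shRNA 1 replicate 2, PLA1A's without PRMT5 shRNA 1 replicate 1, and NCALD's without any 1 array except PRMT5 shRNA 2 replicate 2, with adjusted p between 0.0523 and 0.143 in these cases.

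**Figure D3:**
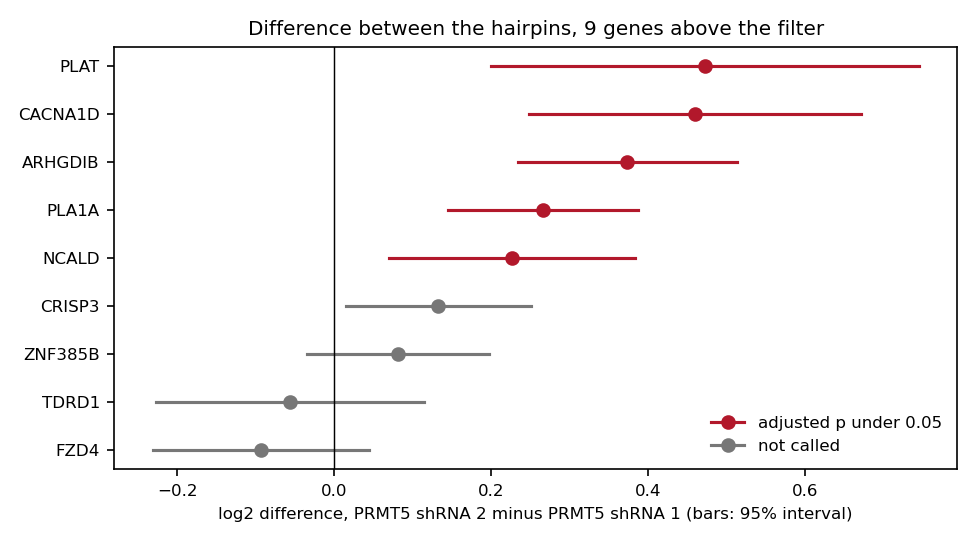
Log2 difference between the hairpins, PRMT5 shRNA 2 minus PRMT5 shRNA 1 (horizontal axis, bars are 95% intervals before adjustment), for the 9 genes above the filter. The 5 called genes lie between 0.23 and 0.47, and the intervals of FZD4, TDRD1 and ZNF385B cross 0.

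ERG itself is the factor these genes were reported with. Its brightest probe set, 241926_s_at, read 1424.3 and 1354.7 with PRMT5 shRNA 2, 1004.7 and 1125.1 with PRMT5 shRNA 1, and 1366.9 and 1446.4 with NTC. PRMT5 shRNA 2 arrays overlapped the controls and PRMT5 shRNA 1 arrays were below them. On this probe set ERG fell by 0.21 ± 0.06 (SE, limma, adjusted p = 0.0197) with both hairpins averaged. It gave -0.02 ± 0.07 with PRMT5 shRNA 2 and -0.40 ± 0.07 with PRMT5 shRNA 1. In the fit over probe sets all 4 ERG probe sets were called lower with both hairpins averaged. All 4 were called lower with PRMT5 shRNA 1, and none with PRMT5 shRNA 2. One of them, 222079_at, was below both NTC arrays in all 4 knockdown arrays. PLAT, CACNA1D, ARHGDIB, NCALD, FZD4 and ZNF385B were called with each hairpin, and PLA1A and CRISP3 with PRMT5 shRNA 1 only. The part of ERG in the changes of these genes was not tested.

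Another 13 genes reported higher with ERG were read for comparison, chosen with earlier results for some of them known. Of 11 above the filter, 6 rose, 1 fell and 4 did not pass, where 15.4% of all genes rose and 17.0% fell. Their median log2 difference was 0.19, and that of all genes was -0.01. CXCR4, a chemokine receptor, read 94.5 and 103.5 with PRMT5 shRNA 2, 90 and 108 with PRMT5 shRNA 1, and 43.9 and 36.2 with NTC, and gave 1.04 ± 0.10 (SE). ADAMTS1, a secreted metalloprotease (0.88 ± 0.07), HPGD, which breaks down prostaglandins (0.54 ± 0.05), and YAP1, a Hippo pathway co-activator (0.44 ± 0.06), rose with each hairpin.

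**Figure D4:**
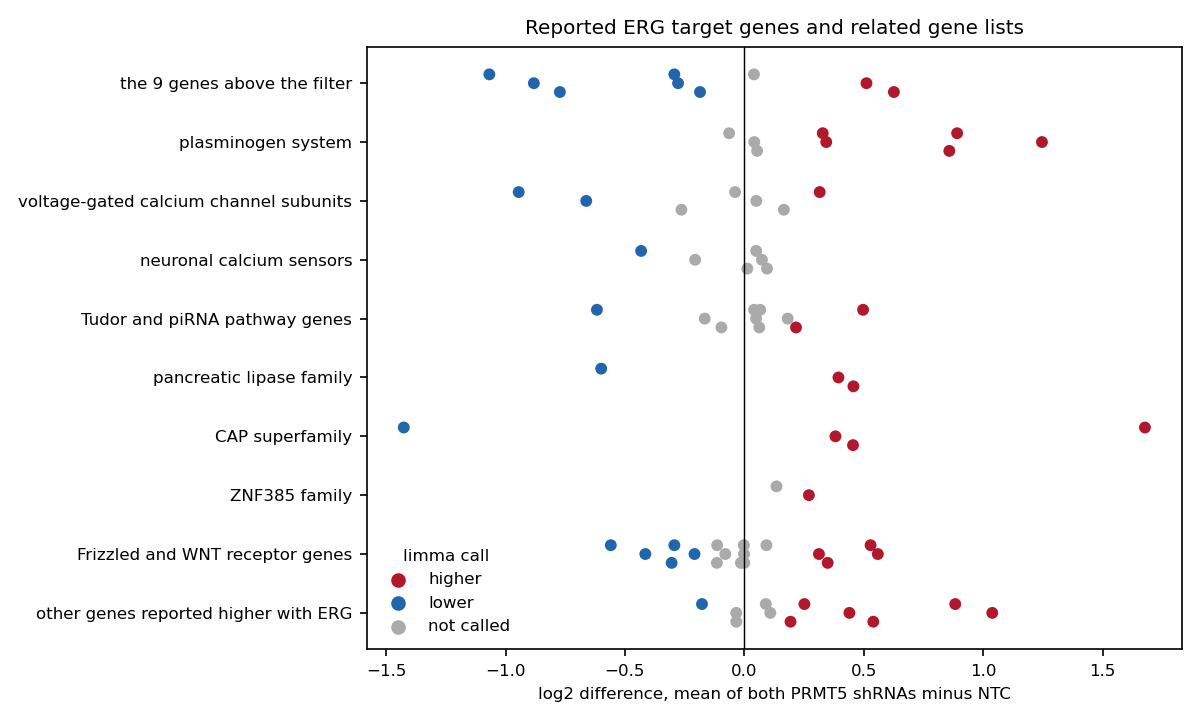
Log2 difference of the mean of both PRMT5 shRNAs minus NTC (horizontal axis) for the 9 genes above the filter and for 9 related lists, 1 point per gene, coloured by limma's call at an adjusted p under 0.05. The 9 genes run from -1.07 to 0.63, and each list except the plasminogen system, the neuronal calcium sensors and the ZNF385 family holds both higher and lower calls.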

How the data were processed

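RNA of 6 VCaP samples was hybridised to an array of 54675 probe sets. The deposited file holds 1 linear intensity per probe set and sample. The submitters' processing notes name MAS5 for it, with version, detection calls and later steps not given in the sources used here. The deposited columns had a trimmed mean (2% at each end) of 150.01 to 150.02 and were scaled no further. All 6 value columns matched a sample. Probe sets were named through the platform annotation, in which 41091 had exactly 1 symbol, and 62 control probe sets were left out. A probe set was kept if it reached its array's median in at least 2 arrays, and the brightest kept one stood for its gene. Log2(intensity + 16) was fitted with limma 3.58.1 in R 4.3.3 (1 coefficient per group, eBayes with an intensity trend, two-sided), over 12413 genes and, apart, over 28644 probe sets, and calls were made at a Benjamini-Hochberg adjusted p under 0.05. In simulated data, 67.2% of planted log2 differences of 0.5 were recovered with both hairpins averaged. With PRMT5 shRNA 1 it was 56.7%, with PRMT5 shRNA 2 61.2%, and between the hairpins 56.7%. A gene that did not pass may therefore still differ. The number of arrays limits the precision. Alternatives were the pseudocount, filter, quantile normalization, probe set choice, trend, replicate block, pooled hairpins and leaving out each array. Text names all 10 members, PRMT5, ERG, and up to 4 called genes per related list with some uncalled ones chosen for their role after values were seen. Members and lists were chosen with earlier results of these data known. One list of related genes is not reported here.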

Additional observations from a re-analysis of the deposited data

Results flagged for a closer look

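The effects of the 2 hairpins differed for 5 members when tested directly (limma, PRMT5 shRNA 2 minus PRMT5 shRNA 1, adjusted p under 0.05, where 25.7% of all genes differed). The log2 differences were 0.47 for PLAT, 0.46 for CACNA1D, 0.37 for ARHGDIB, 0.27 for PLA1A and 0.23 for NCALD. The PLAT readings of both hairpins lie near or under the array medians, so its size depends on the pseudocount. The difference of CACNA1D was not called as the mean over its probe sets. Of the 5 calls, only that of ARHGDIB was kept under every alternative tried. In PLAT, CACNA1D, ARHGDIB and PLA1A both hairpins lay below NTC, and in NCALD both lay above it. The PRMT5 transcript was left at 36.2% of its NTC intensity by PRMT5 shRNA 2 and at 15.9% by PRMT5 shRNA 1, and its part in these differences was not tested. Groups of 2 arrays are too small for a check on single outlying arrays.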

How the results depend on the processing

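For the 9 tested members in 4 contrasts, 509 recomputed values kept their direction and their side of the threshold, 22 kept the direction and lost the call, 5 gained it, and 1 changed sign. The last was TDRD1 with PRMT5 shRNA 2, never called, at -0.0225 without NTC replicate 2 and 0.0464 without NTC replicate 1. Without _x_at and _s_at probe sets, which left 6 members to test, the count called higher was 1 for both hairpins averaged (15.1% of all genes), 1 for PRMT5 shRNA 1 (16%), 1 for PRMT5 shRNA 2 (12.5%) and 3 between the hairpins (17.6%). The mean over probe sets added 1 member called lower between the hairpins, where 10.5% of all genes were (FZD4, -0.22, limma, adjusted p = 0.0438). Leaving out 1 array gave 2 to 4 members higher between the hairpins, against 5 with all arrays, where 7.72% to 16.4% of all genes were higher. Over all genes, 4016 were called with both hairpins averaged, 2180 without NTC replicate 1, 2275 without NTC replicate 2 and 1501 with both hairpins as 1 group. Replicate numbers are shared by the groups but the labels tie them to nothing, and deviations of same-numbered arrays correlated at -0.18 to -0.00. With a replicate block, 6 members were lower (15.3% of all genes) and 2 higher (14.5%) with both hairpins averaged, and 4 were higher between the hairpins (16.2%), NCALD being lost (adjusted p = 0.0651). The count called lower against NTC, 6 with both hairpins averaged, was 5 with no intensity trend, where 15.4% of all genes were. It was 4 with both hairpins as 1 group, where 4.92% of all genes were. PLAU and the dim NCALD probe set 1562790_at were below the filter and not tested.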
